A study of Homo sapiens with 120 samples.

Results

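Asparagine synthetase (ASNS), alanine aminotransferase 2 (GPT2), the aspartate aminotransferases GOT1 and GOT2, pyrroline-5-carboxylate reductase 1 (PYCR1), pyrroline-5-carboxylate synthase (ALDH18A1) and glutamine synthetase (GLUL) were followed by RNA sequencing. These 7 genes were picked by symbol out of the 57665 genes in the tables, and all 7 passed the filter on low counts. The cells were U2OS, a human osteosarcoma line, as the unmodified line (Parental) and as a derivative called Dmr-PERK. The derivative stably carries a fusion of the kinase domain of mouse PERK with DmrB, a domain that the ligand AP20187 (the dimerizer) brings together in pairs, which switches the kinase on. The labels give both lines the genotype WT and do not say whether the Dmr-PERK line is 1 clone. Wells of each line were left untreated and collected at 0, 4, 8, 16 and 24 h, or were given the dimerizer at 195 pM, thapsigargin at 100 nM or sodium arsenite at 0.05 mM and collected at 2, 4, 8, 16 and 24 h. Thapsigargin blocks the calcium pump of the endoplasmic reticulum (ER), and arsenite causes oxidative stress. Each of the 40 groups of line, treatment and time held 3 wells, 120 libraries in all, and the series text says that the doses were matched on eIF2α phosphorylation. The labels do not state if the triplicate wells came from separate cultures, so p-values reflect only well-to-well spread, which may be technical.

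The enzymes surround glutamate. GOT1 in the cytosol and GOT2 in mitochondria move the amino group of glutamate to oxaloacetate and so make aspartate, GPT2 in mitochondria makes alanine from pyruvate, ASNS makes asparagine from aspartate with the amide nitrogen of glutamine, ALDH18A1 and PYCR1 catalyse the first and last steps from glutamate to proline, and GLUL joins ammonia to glutamate to make glutamine. In the integrated stress response, kinases such as PERK phosphorylate eIF2α, general translation slows, and translation of the transcription factor ATF4 rises. ATF4 is known to activate genes of amino acid synthesis and transport, ASNS among the best studied, through composite sites that join a C/EBP part and an ATF part.

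The promoters of 4 members are shown because their RNAs moved differently: ASNS and GOT1 rose in every treatment of Dmr-PERK cells, GOT2 is the mitochondrial counterpart of GOT1 and fell, and GLUL moved in both directions. Each run is the 250 bases before an annotated start, 5′ to 3′ on the gene's strand, from RefSeq on GRCh38.p14. Capitals mark matches to TGATGNAA, the core of the composite site, searched on both strands. The coordinates are chr7:97872409-97872658 for ASNS, chr10:99430625-99430874 for GOT1, chr16:58734317-58734566 for GOT2 and chr1:182391791-182392040 for GLUL, all on the minus strand.
ASNS: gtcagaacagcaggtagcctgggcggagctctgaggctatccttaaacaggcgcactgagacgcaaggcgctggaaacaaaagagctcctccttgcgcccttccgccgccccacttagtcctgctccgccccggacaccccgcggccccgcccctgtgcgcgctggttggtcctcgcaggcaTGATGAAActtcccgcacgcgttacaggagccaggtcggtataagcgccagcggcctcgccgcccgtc
GOT1: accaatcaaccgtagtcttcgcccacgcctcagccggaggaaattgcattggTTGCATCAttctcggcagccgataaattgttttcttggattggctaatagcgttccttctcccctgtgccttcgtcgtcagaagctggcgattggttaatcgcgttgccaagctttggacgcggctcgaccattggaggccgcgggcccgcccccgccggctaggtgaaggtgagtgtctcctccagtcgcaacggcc
GOT2: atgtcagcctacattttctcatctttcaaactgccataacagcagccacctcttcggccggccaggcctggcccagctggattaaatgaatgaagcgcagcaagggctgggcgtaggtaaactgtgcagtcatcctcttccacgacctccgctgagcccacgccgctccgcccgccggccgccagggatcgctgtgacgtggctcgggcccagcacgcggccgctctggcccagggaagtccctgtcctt
GLUL: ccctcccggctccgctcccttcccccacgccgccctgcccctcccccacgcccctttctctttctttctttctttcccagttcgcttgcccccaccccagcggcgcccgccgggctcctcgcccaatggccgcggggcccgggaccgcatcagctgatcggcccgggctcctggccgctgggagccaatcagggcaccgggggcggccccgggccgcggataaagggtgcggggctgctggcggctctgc
The ASNS match reads TGATGAAA and begins 68 bases before the start. The GOT1 match lies on the other strand, reads TTGCATCA along the gene, and begins 198 bases before the start. In windows of 300 bases (250 before and 50 after a start), TGATGNAA occurred in 3.62% of the 35116 windows of the RefSeq table. The table held 7 windows for 5 of the 7 members, and 2 of them, the ones above for ASNS and GOT1, had a match. Neither a further ASNS start nor GOT2, ALDH18A1 or either GLUL start had these letters in its window. PYCR1 and GPT2 had no window in the table. A match is a run of letters and not a measured binding site.

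The members lie at separate places in the genome. In GENCODE 29 on GRCh38, ASNS (ENSG00000070669.16) spans chromosome 7, 97852118 to 97872542, GPT2 (ENSG00000166123.13) chromosome 16, 46884378 to 46931297, GOT2 (ENSG00000125166.12) chromosome 16, 58707131 to 58734357, PYCR1 (ENSG00000183010.16) chromosome 17, 81932384 to 81942412, and ALDH18A1 (ENSG00000059573.8) chromosome 10, 95605929 to 95656706. RefSeq on GRCh38.p14 places GOT1 (ENSG00000120053.10) on chromosome 10, 99396870 to 99430624, and GLUL (ENSG00000135821.17) on chromosome 1, 182378098 to 182391790. PYCR1 overlaps MYADML2, and ASNS overlaps the processed transcript AC079781.5, each on the member's own strand, where strand would not separate shared reads. ASNS, GOT1, GOT2 and PYCR1 also overlap noncoding or pseudogene entries on the other strand. Reads of these cannot be told apart with certainty, since how strand entered the counting is not stated in these sources. Among pseudogenes of the members, ASNSP1 reached 12.4 TPM (median 2.43) and 11 others stayed at or under 0.605 TPM.

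Library totals ran from 12869311 to 56504690 estimated counts. The 3 wells of Parental cells at 24 h of arsenite had the lowest correlations with their group (0.961 to 0.973 against 0.985 or more elsewhere), and replicate 3 was the lowest of them. Without that well, no member's arsenite effect in Parental cells from 4 h on crossed the threshold, nor did its difference between the lines. EIF2AK3, the gene of PERK, stood at 964.3 CPM in untreated Dmr-PERK and 29.75 CPM in untreated Parental cells over 4 to 24 h. The Dmr-PERK value may include reads from the fusion, and the share of the cells' own gene was not tested. Thapsigargin lowered EIF2AK3 in Dmr-PERK cells (-0.58 ± 0.02) and raised it in Parental cells (2.19 ± 0.03). ATF4 RNA rose in Dmr-PERK cells with the dimerizer (log2 effect 1.06 ± 0.02), thapsigargin (1.12 ± 0.02) and arsenite (1.60 ± 0.02), and did not pass the test in Parental cells with the dimerizer (-0.01 ± 0.02, edgeR adjusted p = 0.967). Its targets DDIT3 and TRIB3 rose by 3.15 ± 0.04 and 3.46 ± 0.03 with the dimerizer in Dmr-PERK cells and did not pass in Parental cells (-0.09 ± 0.05 and 0.01 ± 0.04, adjusted p = 0.717 and 1). Of the mesenchymal and bone markers, VIM (917 to 2700 TPM), SPARC and COL1A1 were high. RUNX2 (3.89 to 23.3 TPM) and ALPL (1.98 to 32 TPM) were low. TWIST1, a defining mesenchymal factor, was at or near the lowest value in the table (0.0631 to 0.495 TPM). Summed epithelial markers ran from 4.67 to 26.2 TPM, and summed blood or liver markers reached at most 2.76 TPM. The summed TPM of the 6 mesenchymal and bone markers ran from 4050 to 4680 in untreated and from 1490 to 4510 in treated Dmr-PERK wells, and its part in the results was not tested. The scaling also bears on arsenite: the median log2 effect over all genes, 0.11 in Dmr-PERK and 0.09 in Parental cells, was 0.11 higher in both with DESeq2-type size factors and 0.14 to 0.25 lower on the TPM scale, so small arsenite effects are relative to that shift. Differences of the dimerizer or thapsigargin from arsenite shifted by 0.1 to 0.23 in size. Fewer cells and less RNA per cell cannot be told apart in such data.

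Levels are given as CPM, counts scaled to a common library size, with the SD of 3 wells, and effects as log2 fold changes from untreated wells of the same line with an approximate standard error. Averaged over 4, 8, 16 and 24 h, the dimerizer raised 5 of the 7 RNAs in Dmr-PERK cells and lowered 2, by edgeR at an adjusted p under 0.05. Of all 26998 genes tested, 27.4% were called higher and 27.9% lower in that comparison. Thapsigargin raised and lowered the same numbers (5 and 2), where 30.8% of all genes were called higher and 32.2% lower. Arsenite also raised 5 and lowered 2, where 44.2% and 39.2% of all genes were called, but 2 members stood on the other side: ALDH18A1 fell and GLUL rose with arsenite, opposite to the other treatments. In Parental cells thapsigargin (29.8% of all genes higher, 34.7% lower) and arsenite (42.4% and 39.4%; 41.4% of its calls were higher on the log2(TPM + 0.1) scale against 51.9%) each raised 5 members and lowered 2, every member in its Dmr-PERK direction. The dimerizer called 0 of the 7 in Parental cells, where it called 0.515% of all genes (139, and 31 or 3 without replicate 1 or 2). At an unadjusted p under 0.05 it called 1 of the 7, ASNS (0.06 ± 0.02), by edgeR and by DESeq2 and 0 by limma on log2(TPM + 1), and all 3 tools called 0 after adjustment. Of the genes it called there, 54% were higher by edgeR, 70.1% by DESeq2 and 39.3% by limma.

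**Figure D1:**
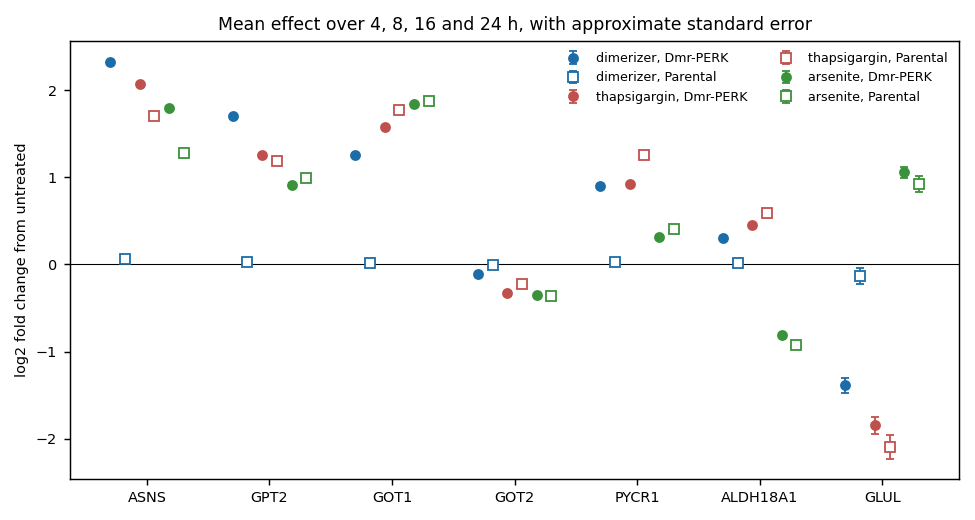
Mean log2 effect over 4, 8, 16 and 24 h (vertical axis) of each treatment on each of the 7 genes, filled for Dmr-PERK and open for Parental cells, with bars for the approximate standard error. Dimerizer effects in Parental cells lie near 0, from -0.13 to 0.06, and ALDH18A1 and GLUL lie on opposite sides of 0 for arsenite and thapsigargin.

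ASNS gave the widest response to the dimerizer among the 7. It stood at 70.14, 66.88 and 76.17 CPM in the untreated Dmr-PERK wells at 24 h and at 437.9, 457.1 and 444.4 CPM with the dimerizer. All 3 treated wells lay above all untreated ones, a log2 effect of 2.65 ± 0.04. The effect was already 0.75 ± 0.04 at 2 h and then 1.63, 2.29 and 2.69 at 4, 8 and 16 h. Thapsigargin brought ASNS to 343.7 ± 5.93 CPM at 24 h (2.27 ± 0.04). With arsenite the level was highest at 8 h, 278.2 ± 8.43 CPM, and came down to 199.5 ± 4.25 CPM at 24 h, still above untreated wells (1.49 ± 0.04).

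Parental cells had a smaller mean ASNS response to the agents they share. Thapsigargin raised ASNS to 279.8 ± 6.32 CPM at 8 h and 242.3 ± 5.77 CPM at 24 h, and arsenite to 216.9 ± 3.47 and 144.7 ± 4.85 CPM. The 24 h arsenite effect, 0.73 ± 0.04 in CPM and 0.72 without the well that stands apart, was 0.09 on the TPM scale and did not pass there (limma adjusted p = 0.0741). Over 4 to 24 h the effects were 1.71 ± 0.02 and 1.28 ± 0.02, against 2.07 ± 0.02 and 1.80 ± 0.02 in Dmr-PERK cells. The difference between the lines was 0.36 ± 0.03 for thapsigargin and 0.52 ± 0.03 for arsenite, both past the threshold (0.52 for arsenite also without that well). For thapsigargin the gap lay at the late hours. The effect was 2.48 and 2.27 at 16 and 24 h in Dmr-PERK cells against 1.69 and 1.47 in Parental cells. It was 1.32 against 1.49 at 4 h and 2.20 against 2.18 at 8 h. These differences were not tested by hour. At 16 and 24 h untreated wells held 61.94 and 71.06 CPM in Dmr-PERK cells and 80.93 and 87.46 CPM in Parental cells. Thapsigargin wells held 344.5 and 343.7 against 260.4 and 242.3 CPM, so the gap lies partly in the untreated wells. With the dimerizer, Parental wells at 24 h held 95.25, 95.78 and 102.9 CPM beside 87.78, 83.23 and 91.37 CPM untreated, which did not pass the test (0.16 ± 0.04, edgeR adjusted p = 0.369) but did with DESeq2 (adjusted p = 0.00687). At 2 h, set against untreated wells at 0 h because none were collected at 2 h, it passed (0.19 ± 0.04, edgeR adjusted p = 0.0394). That call was lost without replicate 1, 2 or 3 (adjusted p = 0.603, 0.985 and 0.096), on the TPM scale, and against untreated wells at 4 h (0.03). ARHGEF2, RAB39B and INHBE had the level patterns most like ASNS, with Pearson correlations of 0.97, 0.95 and 0.95 over the 40 group means among 12331 genes of at least 5 CPM.

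**Figure D2:**
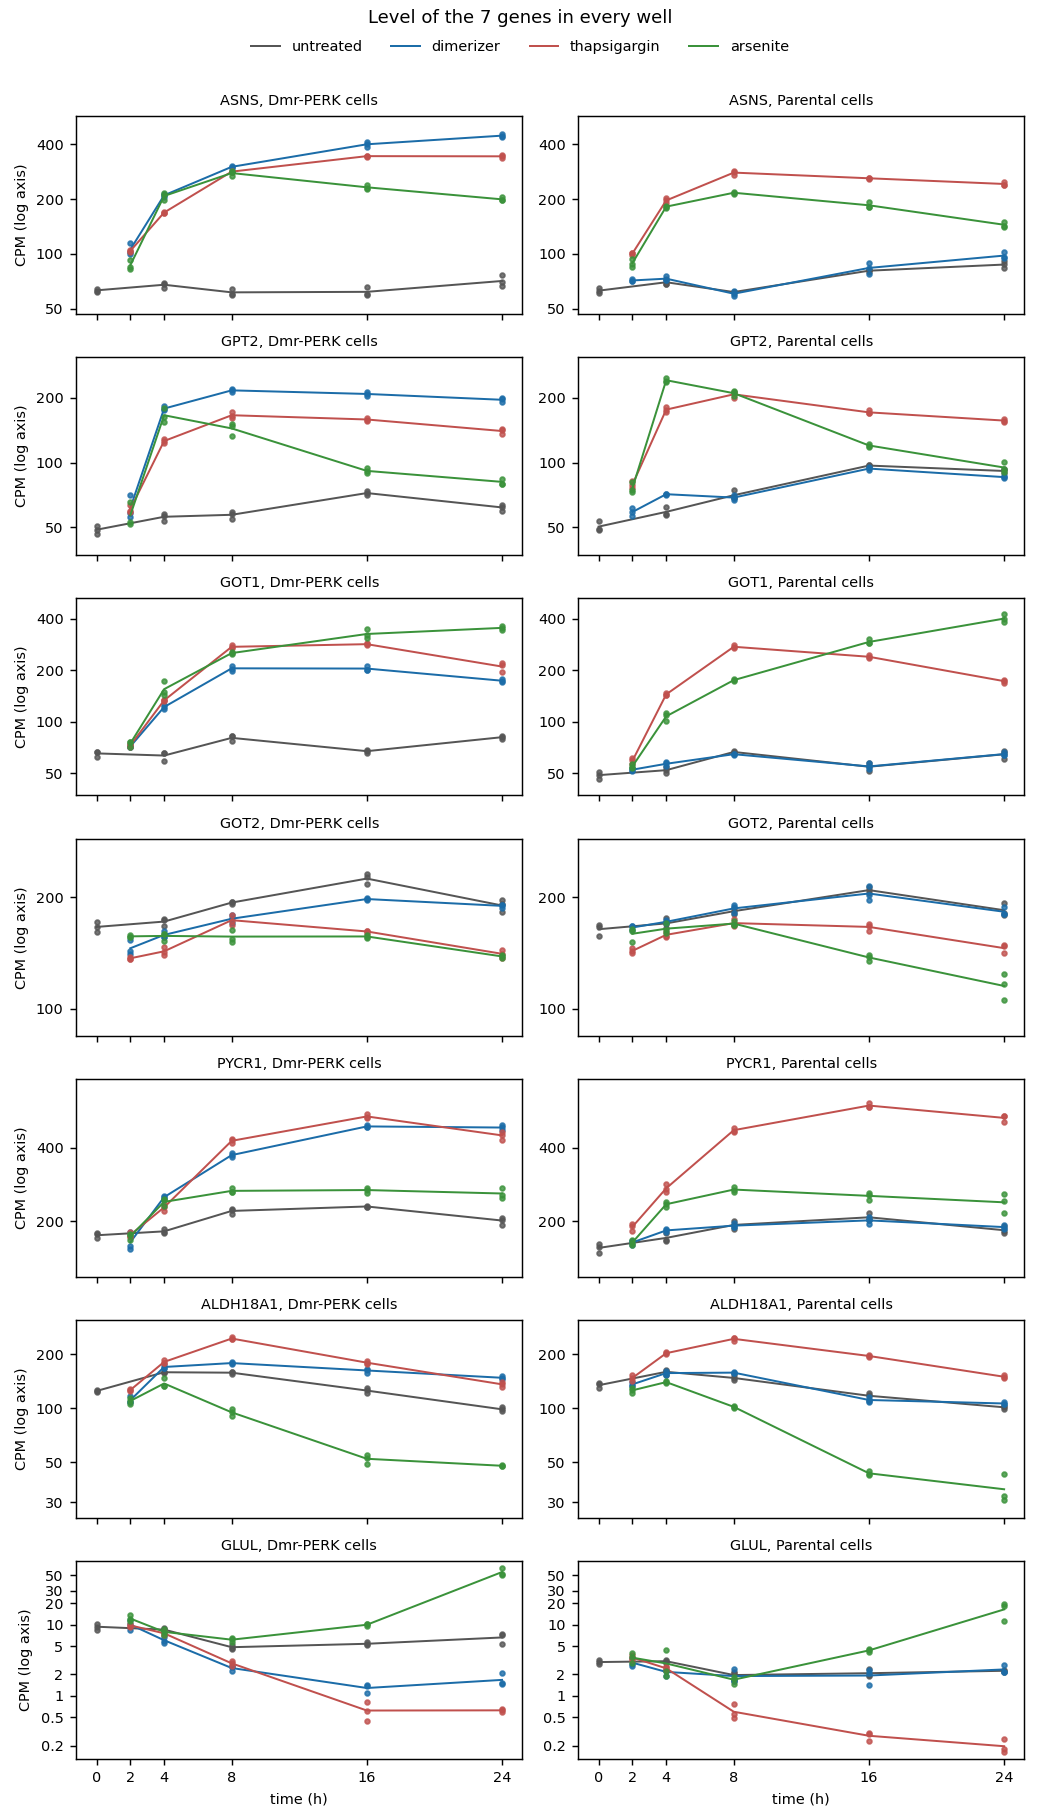
Level of each of the 7 genes (CPM, log axis) against time in hours, Dmr-PERK cells on the left and Parental cells on the right. Points are wells, lines join means of 3 wells, and colours give the treatment. Dimerizer wells of Parental cells run close to the untreated ones, though not always among them. At 4 h, for example, GPT2 wells held 70.63 to 71.69 CPM with the dimerizer against 56.88 to 62.2 CPM untreated. GLUL spreads from 0.1639 to 63.26 CPM.

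GPT2 rose early, and with arsenite it came back down. In Dmr-PERK cells it stood at 57.52, 54.71 and 59.11 CPM untreated at 8 h and at 218.9, 213.9 and 217.8 CPM with the dimerizer, with no overlap (1.92 ± 0.05). It stayed near that level to 24 h, at 196.1 ± 3.5 CPM. Arsenite raised it at 4 h to 163.8, 154.8 and 179.7 CPM (1.57 ± 0.05), but by 24 h it was at 79.88, 79.68 and 84.28 CPM, just above the untreated 62.34, 59.38 and 63.68 CPM (0.40 ± 0.05), though on the TPM scale they were lower (log2 difference of TPM + 1 of -0.17, limma adjusted p = 0.0474). In Parental cells the rise and fall had the same shape. Arsenite brought GPT2 to 248.3, 240.3 and 236.8 CPM at 4 h, the highest group of all 40 for this gene, an effect of 2.03 ± 0.05. At 24 h the treated wells (90.54, 93.66 and 100.2 CPM) overlapped the untreated ones (91.87, 93.17 and 89.09 CPM), and the effect was 0.05 ± 0.05 (edgeR adjusted p = 0.343). That value depends on the scaling: it was 0.28 with DESeq2-type size factors and -0.61 on the TPM scale, past the threshold in both, and 0.00 without the well that stands apart.

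Untreated GPT2 itself moved with time in Parental cells, from 50.31 ± 2.79 CPM at 0 h to 96.82 ± 1.42 CPM at 16 h, and from 48.66 ± 2.08 to 72.1 ± 1.59 CPM in Dmr-PERK cells. The effects above are set against untreated wells of the same hour. Its cytosolic paralog GPT was far lower, at 4.41 TPM in untreated Dmr-PERK wells against 31.3 ± 5.62 TPM for GPT2. GPT did not pass the test with the dimerizer (-0.15 ± 0.11, edgeR adjusted p = 0.238) or thapsigargin (-0.10 ± 0.10, adjusted p = 0.403) in Dmr-PERK cells and rose with arsenite (1.05 ± 0.10). The gene patterns most like GPT2 were those of PKD1P6 (Pearson 0.94), UHRF1BP1 (0.94) and PSAT1 (0.93), the last an aminotransferase of serine synthesis.

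The aspartate aminotransferases parted. GOT1, the cytosolic enzyme, rose in Dmr-PERK cells with the dimerizer (1.25 ± 0.02), thapsigargin (1.57 ± 0.02) and arsenite (1.84 ± 0.02) over 4 to 24 h. GOT2, the mitochondrial enzyme, fell with each, by 0.11 ± 0.02, 0.33 ± 0.02 and 0.35 ± 0.02 on the log2 scale. At 24 h of arsenite GOT1 stood at 345.9, 362.8 and 356.0 CPM against 79.83, 81.76 and 82.51 CPM untreated, while GOT2 stood at 140.1, 136.8 and 138.7 CPM against 191.2, 182.1 and 196.7 CPM. The wells do not overlap for either gene, and the directions are opposite. With the dimerizer at 24 h, GOT2 wells (187.6, 190.3 and 190.8 CPM) lay within the untreated range (0.00 ± 0.03, edgeR adjusted p = 0.974), though on the TPM scale they were called lower (-0.07, limma adjusted p = 0.0241). The effect was -0.12 to -0.19 at the earlier hours. The 4 h call was lost without replicate 2, without the filter and on the TPM scale (-0.02), and the 2 h call without replicate 2 (-0.14).

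Parental cells showed the same split. At 24 h of arsenite GOT1 reached 398.8, 426.2 and 381.7 CPM, its highest group, from 61.04, 67.31 and 65.51 CPM (2.64 ± 0.04), and GOT2 reached its lowest, 105.6, 116.4 and 124.0 CPM from 181.5, 193.1 and 178.9 CPM (-0.68 ± 0.04). Without replicate 3 of that group the effects were 2.67 ± 0.04 and -0.74 ± 0.04. These arsenite wells were also the ones least like each other, and their 10 highest genes took 13 to 15.9% of the counts against a median of 6.36% over all libraries. Thapsigargin raised GOT1 most at 16 h, by 2.08 ± 0.04 in Dmr-PERK and 2.14 ± 0.04 in Parental cells. The dimerizer's effect on GOT1 in Parental cells was 0.02 ± 0.02 (edgeR adjusted p = 0.907).

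Set per length as TPM, GOT1 RNA was below GOT2 RNA in every untreated group, at 0.404 to 0.663 of it. By 4 h the mean ratio was above 1 with each agent in Dmr-PERK cells (1.17 to 1.52) and with thapsigargin (1.4) and arsenite (1.02, 1 well at 0.999) in Parental cells. It reached 1.82 ± 0.0739 with the dimerizer at 8 h, 2.71 ± 0.0124 with thapsigargin at 16 h and 4.03 ± 0.226 with arsenite at 24 h in Dmr-PERK cells, and 5.33 ± 0.609 with arsenite at 24 h in Parental cells (SD, n = 3 each), where the well that stands apart was the lowest at 4.62. Patterns most like GOT1 were those of PFDN2 (Pearson 0.97), TARS (0.96) and VIP (0.96), and most like GOT2 those of ATP5B (0.91), SORD (0.88) and TUFM (0.87).

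**Figure D3:**
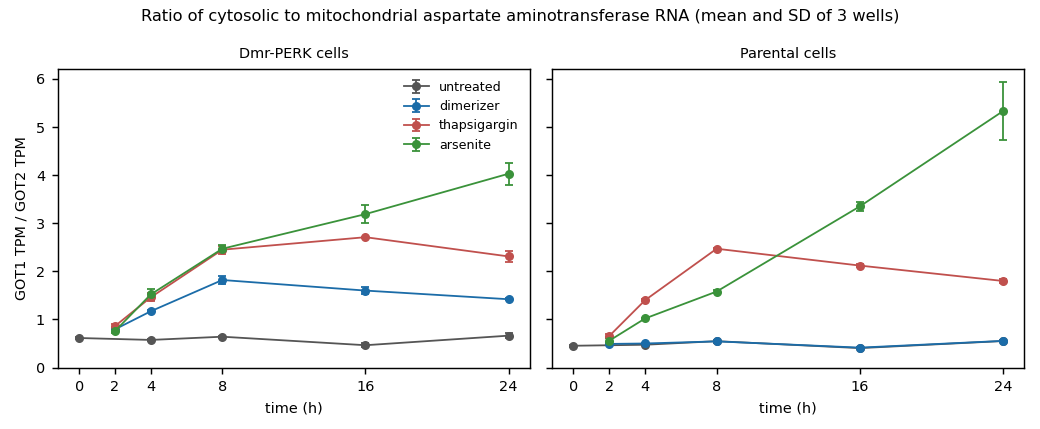
Ratio of GOT1 to GOT2 TPM (vertical axis) against time in hours in Dmr-PERK cells (left) and Parental cells (right), mean and SD of 3 wells. Untreated wells stay between 0.404 and 0.663, and arsenite wells climb to 4.03 and 5.33 at 24 h.

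The enzymes at the ends of proline synthesis moved together with the dimerizer and thapsigargin and apart with arsenite. PYCR1, the last step, stood at 231.4, 229.5 and 228.1 CPM in untreated Dmr-PERK wells at 16 h. It was at 488.6, 494.5 and 486.2 CPM with the dimerizer (1.09 ± 0.04), 530.9, 551.1 and 532.9 CPM with thapsigargin (1.23 ± 0.04) and 274.0, 269.0 and 261.8 CPM with arsenite (0.22 ± 0.04). All 9 treated wells lay above the untreated ones in CPM, but on the TPM scale the arsenite difference was -0.0105 (limma adjusted p = 0.806). At 2 h the dimerizer, thapsigargin and arsenite did not pass the test for PYCR1 in Dmr-PERK cells (-0.09 ± 0.04, 0.01 ± 0.04 and -0.01 ± 0.04, edgeR adjusted p = 0.115, 0.96 and 0.896). Thapsigargin was called higher at 2 h on the TPM scale (0.12), and the dimerizer lower without replicate 1 (-0.16) and against untreated wells at 4 h (-0.15). Parental cells responded more to thapsigargin, reaching 588.7, 589.1 and 611.8 CPM at 16 h (1.52 ± 0.04), and the difference between the lines over 4 to 24 h was -0.34 ± 0.03 (Dmr-PERK minus Parental). With arsenite at 24 h PYCR1 was higher in Parental cells in CPM (0.38 ± 0.04, and 0.31 without the well that stands apart) and lower on the TPM scale (-0.23), so its direction there flips with the scaling, while the means over 4 to 24 h kept their sign on both (0.32 and 0.12 in Dmr-PERK, 0.40 and 0.13 in Parental cells).

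ALDH18A1, the first step, rose less. At 24 h it stood at 148.4, 151.0 and 145.4 CPM with the dimerizer against 101.7, 98.73 and 96.34 CPM untreated in Dmr-PERK cells (0.58 ± 0.04). The last of these was the lowest of all untreated Dmr-PERK wells. Over 4 to 24 h dimerizer wells averaged 165.1 ± 12.2 CPM against 135.6 ± 26.3 CPM untreated (SD, n = 12 each). At 4 h the dimerizer effect did not pass by edgeR but was called higher with DESeq2 (0.08) and on the TPM scale (0.20). With thapsigargin it was highest at 8 h, at 243.0, 244.4 and 248.7 CPM against 156.6, 159.3 and 159.0 CPM (0.63 ± 0.04). At 2 h the dimerizer (-0.17 ± 0.04) and arsenite (-0.18 ± 0.04) wells were lower than untreated wells at 0 h. The first of these calls was lost without replicate 2 and on the TPM scale (-0.08), and the other without replicate 1 (-0.15). The 2 h thapsigargin wells were not called different (0.02 ± 0.04 with an edgeR adjusted p = 0.825) but were called higher on the TPM scale (0.13) and lower against untreated wells at 4 h (-0.33). Arsenite lowered ALDH18A1 further at 4 h (-0.21 ± 0.04) and 16 h (-1.26 ± 0.04) and left 48.47, 47.5 and 47.8 CPM at 24 h (-1.05 ± 0.05), under every untreated well. In Parental cells the 24 h arsenite wells held 30.74, 32.63 and 42.96 CPM against 103.0, 99.74 and 101.8 CPM (-1.52 ± 0.05), where the well that stands apart is the highest. Without that well the effect was -1.69 ± 0.05.

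PYCRL, the cytosolic paralog of PYCR1, rose in Dmr-PERK cells with the dimerizer (0.25 ± 0.03) and thapsigargin (0.32 ± 0.03) and fell with arsenite (-1.45 ± 0.04). It fell with arsenite in Parental cells too (-1.79 ± 0.04), while the mean arsenite effect on PYCR1 was a rise in both lines. PRODH, which starts proline breakdown, fell with the dimerizer (-0.63 ± 0.25) and rose with arsenite (1.43 ± 0.20) at a very low level, 0.226 TPM in untreated Dmr-PERK wells. TCEA1 (Pearson 0.98), FAM27E3 (0.96) and BOD1 (0.95) were most like PYCR1, and MAP4K5 (0.96), TRIT1 (0.96) and E2F4 (0.96) most like ALDH18A1.

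GLUL was the lowest and the most variable member. In untreated wells it averaged 6.954 ± 1.91 CPM in Dmr-PERK and 2.468 ± 0.517 CPM in Parental cells (SD, n = 15 each, over 5 times), a log2 difference of 1.48 ± 0.07. Over the 40 groups it ran from 0.1954 ± 0.0428 CPM (Parental, thapsigargin, 24 h) to 55.13 ± 7.05 CPM (Dmr-PERK, arsenite, 24 h), a 282-fold range, where the other members ranged from 1.95-fold (GOT2) to 8.25-fold (GOT1). The lowest wells rest on 4 to 5 estimated counts each, so their level is imprecise.

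With the dimerizer GLUL fell in Dmr-PERK cells by 0.49 ± 0.13 at 4 h, 0.99 ± 0.17 at 8 h and 2.07 ± 0.19 at 16 h on the log2 scale. The 4 h call was lost without replicate 1 (-0.43) and on the TPM scale (-0.31, limma adjusted p = 0.227). At 24 h its wells held 1.504, 1.449 and 2.073 CPM against 5.436, 7.074 and 7.363 CPM untreated, without overlap. Thapsigargin lowered it further, to 0.6284, 0.5961 and 0.6498 CPM at 24 h (-3.38 ± 0.21). In Parental cells thapsigargin left 0.2441, 0.1783 and 0.1639 CPM against 2.191, 2.245 and 2.315 CPM (-3.50 ± 0.33), and the difference between the lines over 4 to 24 h did not pass the test (0.25 ± 0.19, edgeR adjusted p = 0.401). The dimerizer's effect in Parental cells was -0.13 ± 0.09 (adjusted p = 0.807).

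Arsenite raised GLUL at 16 and 24 h in both lines. In Dmr-PERK cells the effect was 0.39 ± 0.12 at 2 h (against 0 h), a call lost without replicate 1 (0.34), without replicate 2 (0.29) and on the TPM scale (0.22), and -0.11 ± 0.13 at 4 h, which did not pass (edgeR adjusted p = 0.534). It was then 0.37 ± 0.15 at 8 h, a call lost without replicate 1 or 2 and on the TPM scale (-0.04, limma adjusted p = 0.872), 0.90 ± 0.13 at 16 h (lost on log2(TPM + 0.1), 0.51) and 3.07 ± 0.12 at 24 h, when wells held 51.29, 50.82 and 63.26 CPM. In Parental cells it passed at 16 h (1.07 ± 0.16) and 24 h (2.88 ± 0.15), when wells held 18.38, 19.5 and 11.39 CPM, the lowest being the well that stands apart. Without it the effect was 3.07 ± 0.14. The effect did not pass in Parental cells at 4 h (-0.09) or 8 h (-0.17), but GLUL was called lower at 8 h on the TPM scale (-0.65) and at 4 h without replicate 3 (-0.54). The mean effects over 4 to 24 h, 1.06 ± 0.07 in Dmr-PERK and 0.92 ± 0.09 in Parental cells, were 0.39 ± 0.08 and 0.27 ± 0.11 without the 24 h wells, still past the threshold. DNM3 (Pearson 0.92), XIRP1 (0.91) and SORBS2 (0.90) had the patterns most like GLUL.

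Single hours show how the 7 genes differ in time. Of 35 tests (7 genes at 5 times) in Dmr-PERK cells, the dimerizer raised 22 and lowered 9, where 18.2% and 16.9% of all tests of all genes at those times were called. Among the 22, GOT1 at 2 h lost its call without replicate 1 (0.17), 2 (0.15) or 3 (0.09) and without the filter (0.14). Thapsigargin raised 23 and lowered 8 (23% and 22.3% of all tests), and arsenite raised 23 and lowered 9 (31% and 27.9%). In Parental cells thapsigargin raised 25 and lowered 8 (22.7% and 22.6%), and arsenite raised 20 and lowered 7 (29.5% and 27.3%). The dimerizer raised 2 and lowered 0 of 35 in Parental cells, where 0.725% and 0.734% of all tests were called. Those 2 were ASNS at 2 h (0.19 ± 0.04) and GPT2 at 4 h (0.27 ± 0.05). When 1 replicate number was left out, 0 to 1 of the 35 remained called (0 without replicate 2). GPT2 at 2 h did not pass here. It was called with DESeq2 (0.22), with DESeq2-type size factors (0.23), without the filter (0.24) and with each line alone (0.22).

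**Figure D4:**
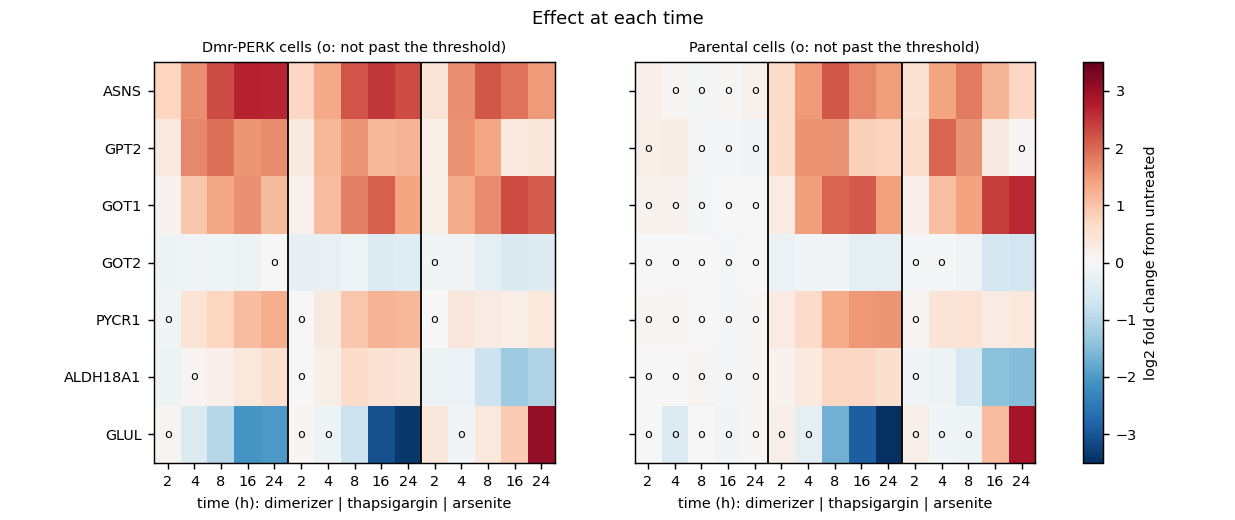
Log2 effect of each treatment at each hour on the 7 genes, in colour from -3.5 (blue) to 3.5 (red), with a circle where the edgeR adjusted p was not under 0.05. Dmr-PERK cells are on the left and Parental cells on the right, where 33 of the 35 dimerizer cells carry a circle. The arsenite effects on PYCR1 and GPT2 at 24 h change sign on the TPM scale.

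The effect changed between 4 and 24 h for all 7 members with the dimerizer (42.1% of all genes), thapsigargin (52%) and arsenite (70.7%) in Dmr-PERK cells, by F-tests with 3 degrees of freedom. It changed for all 7 with thapsigargin (48.8%) and arsenite (71.9%) in Parental cells. With the dimerizer in Parental cells it changed for 1 of 7, GPT2 (3.43% of all genes), a call lost without replicate 2. Between 4 and 24 h the dimerizer's effect on ASNS grew by 1.02 ± 0.06 and that on PYCR1 by 0.80 ± 0.06, while GPT2's differed by -0.01 ± 0.07 (edgeR adjusted p = 0.992). Arsenite's effect on GPT2 fell by 1.17 ± 0.07 in Dmr-PERK and 1.98 ± 0.07 in Parental cells over the same hours, and its effect on GOT1 grew by 0.84 ± 0.06 and 1.60 ± 0.06. Untreated wells changed over time for all 7 members in both lines (53.4% of all genes in Dmr-PERK, 53.3% in Parental cells). ALDH18A1, for example, went from 125.1 ± 1.79 CPM at 0 h to 159.2 ± 1.74 at 4 h and 98.92 ± 2.68 at 24 h in untreated Dmr-PERK cells.

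Treatments were also set directly against each other over 5 times in Dmr-PERK cells. The dimerizer gave higher ASNS (0.20 ± 0.02), GPT2 (0.36 ± 0.02), GOT2 (0.19 ± 0.02) and GLUL (0.37 ± 0.10) than thapsigargin, and lower GOT1 (-0.26 ± 0.02) and ALDH18A1 (-0.15 ± 0.02), so 4 were higher and 2 lower where 26.1% and 20.7% of all genes were called. Of those calls over all genes 55.8% were higher, against 44% on the TPM scale. PYCR1 did not pass (-0.04 ± 0.02, edgeR adjusted p = 0.0827), though it did on the TPM scale (-0.11, limma) and with DESeq2 (-0.04). The GLUL call was lost on the TPM scale (0.10, limma adjusted p = 0.373). Against arsenite the dimerizer gave higher ASNS (0.47 ± 0.02), GPT2 (0.65 ± 0.02), GOT2 (0.17 ± 0.02), PYCR1 (0.45 ± 0.02) and ALDH18A1 (0.90 ± 0.02), and lower GOT1 (-0.48 ± 0.02) and GLUL (-2.01 ± 0.07), 5 higher and 2 lower where 37.8% and 42.5% of all genes were called. In CPM, then, GOT1 was lowest with the dimerizer among the 3 agents, and ASNS and GPT2 were highest with it. Thapsigargin minus arsenite gave 4 members higher and 2 lower in Dmr-PERK cells (37.2% and 43.3% of all genes), from 1.05 ± 0.02 for ALDH18A1 to -2.39 ± 0.07 for GLUL. GOT1 was lower in CPM (-0.22 ± 0.02) and higher on the TPM scale (0.05), and GOT2 did not pass (-0.02 ± 0.02, adjusted p = 0.138) but was called lower with DESeq2 (-0.13) and higher on the TPM scale (0.23). In Parental cells it gave 5 higher and 2 lower (36.9% and 42.3%), from 1.26 ± 0.02 for ALDH18A1 to -2.41 ± 0.11 for GLUL. The small values for GOT1 (-0.06 ± 0.02) and GOT2 (0.08 ± 0.02) changed sign with the scaling, to 0.19 on the TPM scale and to -0.02 with DESeq2-type size factors.

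The difference of the dimerizer's effect between the lines passed for all 7 members, 5 higher and 2 lower in Dmr-PERK cells, where 46.7% of all genes were called (23.6% higher and 23.1% lower). For thapsigargin it passed for 5 of 7 (25.6% of all genes, 11.3% higher and 14.4% lower), with ASNS the 1 member higher in Dmr-PERK cells. For arsenite it passed for 3 of 7 (42.3%, 23.5% higher and 18.8% lower), with ASNS and ALDH18A1 higher and PYCR1 lower. Over all genes, 43.9% of the thapsigargin calls and 55.5% of the arsenite calls were higher, against 62.2% and 72.1% on the TPM scale. Of the arsenite differences, ASNS was the 1 above 0.2 in size. That of ALDH18A1 (0.11 ± 0.03) lost its call without replicate 1 (0.04) and was -0.01 without the 24 h wells, and that of PYCR1 (-0.0854 ± 0.03) lost its call without replicate 2 (-0.07) or 3 (-0.04). Without the 24 h wells GPT2 passed as lower in Dmr-PERK cells (-0.22) and GOT1 as higher (0.12). GPT2 passed as lower for arsenite with DESeq2 (-0.08), with DESeq2-type size factors (-0.08) and without replicate 1 (-0.13) as well. GOT2 was called higher for arsenite on the TPM scale (0.08). Without replicate 3, GPT2 also passed for thapsigargin (0.10).

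The lines also differed before treatment. Averaged over 5 untreated times, GOT1 (0.32 ± 0.02), PYCR1 (0.15 ± 0.02), GOT2 (0.05 ± 0.02) and GLUL were higher in Dmr-PERK cells and GPT2 (-0.28 ± 0.02) and ASNS (-0.15 ± 0.02) lower, 4 higher and 2 lower where 30.2% and 32% of all genes were called. The GOT2 call was lost without replicate 2 (0.04) and on the TPM scale (0.02). ALDH18A1 did not pass (0.01 ± 0.02, edgeR adjusted p = 0.749). The ASNS difference was 0.01 ± 0.04 at 0 h (adjusted p = 0.93) and -0.39 ± 0.04 at 16 h. Per length, PYCR1 was the most abundant member in untreated Dmr-PERK wells at 189.6 ± 23.4 TPM, followed by GOT2 (122.4 ± 14.5), GOT1 (71.78 ± 8.54), ALDH18A1 (65.25 ± 10.5), ASNS (60.45 ± 4.57), GPT2 (31.3 ± 5.62) and GLUL (7.307 ± 2.23) (SD, n = 15 each). Neighbours from GOT1 to ASNS in this order differed by less than the larger SD of the pair. The order of Parental cells put ASNS (70.2 ± 12.8 TPM) above ALDH18A1 (66.15 ± 10.7) and GOT1 (58.38 ± 8.15), with neighbours again closer than their SD.

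Ranking the 40 groups within each gene, ASNS was highest in Dmr-PERK cells at 24 h of the dimerizer (446.5 ± 9.78 CPM), followed by 16 h (400.2 ± 12.6). Both GPT2 and GOT1 were highest in arsenite-treated Parental cells, at 4 h and 24 h. PYCR1 was highest in Parental cells at 16 h of thapsigargin (596.5 ± 13.2 CPM) and ALDH18A1 in Dmr-PERK cells at 8 h of thapsigargin (245.4 ± 2.96), whose wells overlapped those of Parental cells at 8 h (244.4 ± 4.74). GOT2 was highest in untreated Dmr-PERK cells at 16 h (224.5 ± 7.06 CPM). Of 39 neighbours in the ranking, the wells of 25 (ASNS) to 34 (GOT2) overlapped. Over the group means, which share untreated wells and time, ASNS correlated with GPT2 at 0.873 (Pearson), with PYCR1 at 0.857 and with GOT1 at 0.85, and at 0.077 with ALDH18A1. GLUL correlated with PYCR1 at -0.595 and with ALDH18A1 at -0.552. These correlations describe the 40 groups.

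The list of 42 other genes of glutamate, aminotransferase, proline, aspartate and glutamine pathways, and of the shuttle that GOT1 and GOT2 serve, gave the context. Of the 41 tested, the dimerizer raised 21 and lowered 12 in Dmr-PERK cells, where 27.4% and 27.9% of all genes were called, with a median log2 effect of 0.08 against -0.03 over all genes tested. The median of the 7 members was 0.90, but they were chosen with earlier results of these data known, so this contrast only describes them. The 3 highest were PSAT1 (1.75 ± 0.02), ASS1, which joins aspartate to citrulline (1.00 ± 0.03), and BCAT1, an aminotransferase of branched-chain amino acids (0.90 ± 0.02). Among the lowest were PRODH and CTPS2 (-0.58 ± 0.05), a CTP synthase. Thapsigargin raised 17 and lowered 18 (30.8% and 32.2% of all genes; median -0.06 against 0.00 over all genes), from GFPT1 (1.88 ± 0.02), PSAT1 (1.29 ± 0.02) and BCAT1 (1.08 ± 0.02) at the top to GLUD2 (-1.10 ± 0.12), KYAT1 (-1.05 ± 0.05) and CTPS2 (-1.04 ± 0.05) at the bottom. Arsenite raised 12 and lowered 24 (44.2% and 39.2% of all genes, with a median of -0.20 against 0.11). The highest were GLS2 (2.25 ± 0.17), TAT (2.21 ± 0.25) and GFPT2 (2.01 ± 0.06). The lowest were GLUD2 (-3.00 ± 0.15), CAD (-2.15 ± 0.03) and SLC25A12 (-1.90 ± 0.05). Of these, GLS2, TAT and GLUD2 were at very low levels, 0.831, 0.177 and 1.34 TPM in untreated Dmr-PERK wells.

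The counts by role stand beside the same shares of all genes called. These were 27.4% higher and 27.9% lower with the dimerizer, 30.8% and 32.2% with thapsigargin, and 44.2% and 39.2% with arsenite. Some of the counts below lie near those shares. The list of 9 glutamine amidotransferases and related enzymes holds CTPS1 and PPAT, which use the amide of glutamine to make nucleotides, but also NADSYN1, which makes NAD, and CPS1, which uses free ammonia. With the dimerizer 6 rose and 3 fell, with thapsigargin 5 rose and 3 fell, and with arsenite 2 rose (GFPT1 and GFPT2) and 6 fell. All 6 shuttle and glutamate carriers fell with arsenite, SLC25A12 most, where the dimerizer raised 3 and lowered 2. Of the 9 other aminotransferases the dimerizer raised 5 and lowered 2, thapsigargin raised 3 and lowered 4, and arsenite raised 5 and lowered 2. GLUD1, which releases the nitrogen of glutamate as ammonia, rose with the dimerizer (0.32 ± 0.02). In Parental cells the dimerizer called 0 of the 41, where it called 0.515% of all genes.

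**Figure D5:**
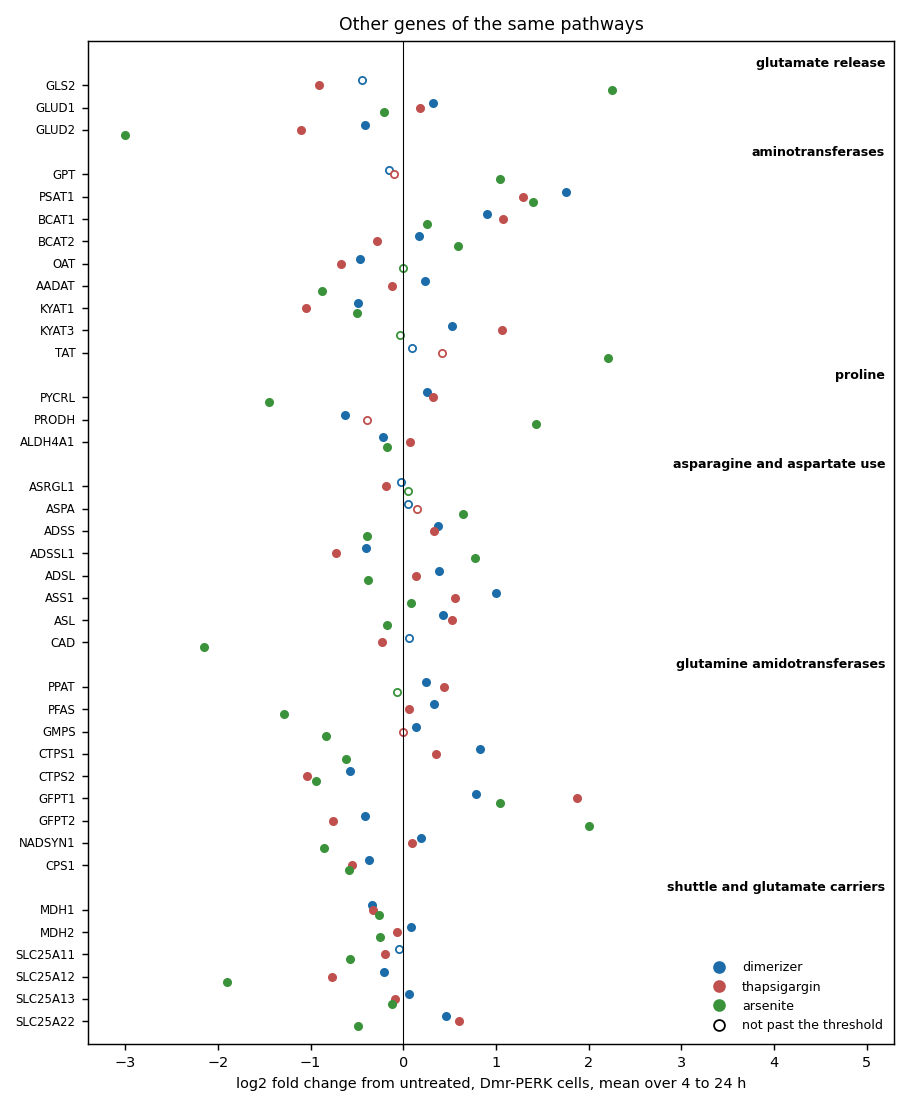
Mean log2 effect over 4 to 24 h in Dmr-PERK cells (horizontal axis) of the dimerizer, thapsigargin and arsenite on 38 of the 41 tested genes of the pathway list, grouped by role. Open symbols did not pass the test, and PRODH2, at the table's floor in untreated wells, is not drawn, nor are genes not reported here. PSAT1 is the highest for the dimerizer at 1.75 and GLUD2 the lowest for arsenite at -3.00, from a level of 1.34 TPM in untreated wells.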

How the data were processed

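RNA from 120 wells was sequenced (directional libraries, per the labels' protocols). Salmon 0.9.1, FastQC 0.11.5 and the build GRCh38 are listed in the submitters' processing notes. The deposited tables hold estimated counts per gene, which need not be whole, and TPM per gene. How strand was used is not stated in these sources. Totals of 12869311 to 56504690 estimated counts set the precision, and values near 5 counts are imprecise.

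Counts were rounded, filtered with filterByExpr (minimum count 10, leaving 26998 of 57665 genes) and scaled by TMM. They were fitted with edgeR 4.0.16 (R 4.3.3) in 1 quasi-likelihood model of 40 groups. P-values were Benjamini-Hochberg adjusted over all genes and called under 0.05. Standard errors are the effect divided by the root of F. Each treated group was set against the untreated group matched for line and hour, the 2 h groups against 0 h. The procedure was tested on simulated data.

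The members and gene lists were chosen with earlier results of these data known. The genes named from the pathway list are the 3 highest and 3 lowest called in each Dmr-PERK treatment and the members' paralogs, beside the controls ATF4, DDIT3, TRIB3 and EIF2AK3, and some of these are not reported here. Those most like a member have the 3 highest Pearson correlations over the 40 group means of log2 CPM (prior count 2), among genes of at least 5 CPM. Alternatives were DESeq2 1.42.0, DESeq2-type size factors (RLE), no filter, limma 3.58.1 on log2(TPM + 1) and log2(TPM + 0.1), a replicate block, each line alone, each replicate left out, 2 h against untreated 4 h, and Spearman correlation. Leaving out 1 well or the 24 h arsenite wells was chosen after seeing the data.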

Additional observations from a re-analysis of the deposited data

Results flagged for a closer look

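Each result here is a difference between the lines in the same contrast, Dmr-PERK minus Parental on the log2 scale, past an edgeR adjusted p of 0.05. For the dimerizer all 7 members differed, where 46.7% of all genes were called. ASNS differed by 2.26 ± 0.03, GPT2 by 1.68 ± 0.04, GOT1 by 1.23 ± 0.03 and PYCR1 by 0.88 ± 0.03. ALDH18A1 differed by 0.29 ± 0.03, GOT2 by -0.11 ± 0.02 and GLUL by -1.26 ± 0.13. Parental cells lack the fusion that the dimerizer acts on.

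For thapsigargin 5 members differed, where 25.6% of all genes were called. ASNS had the larger effect in Dmr-PERK cells (0.36 ± 0.03). The difference was -0.34 ± 0.03 for PYCR1, -0.20 ± 0.03 for GOT1, -0.14 ± 0.03 for ALDH18A1 and -0.11 ± 0.02 for GOT2. The GOT2 call was lost without the filter (-0.09). For arsenite 3 members differed, where 42.3% of all genes were called. ASNS differed by 0.52 ± 0.03, ALDH18A1 by 0.11 ± 0.03 and PYCR1 by -0.0854 ± 0.03. The ALDH18A1 call was lost without replicate 1 (0.04). That of PYCR1 was lost without replicate 2 (-0.07) or 3 (-0.04), without the filter (-0.06) and on the TPM scale (-0.01).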

How the results depend on the processing

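Of 3175 values of single genes under an alternative, 3027 stayed on their side of the threshold, 74 lost the call, 48 gained one and 26 changed sign with a call before or after. Of the 3027, 60 had the other sign without passing under either setting. Of 657 counts, 616 stayed within 1.5 times. The cause of the changes was not tested.

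With limma on log2(TPM + 1) and log2(TPM + 0.1), these arsenite effects changed sign: GLUL in Dmr-PERK cells at 8 h (-0.0403 and -0.0481), PYCR1 at 16 h (-0.0105 on both) and 24 h (-0.0117 on both), GPT2 at 24 h (-0.17 and -0.17), and in Parental cells GPT2 (-0.61 and -0.62) and PYCR1 (-0.23 and -0.23) at 24 h. Thapsigargin minus arsenite became 0.0469 and 0.0472 for GOT1 and 0.23 and 0.23 for GOT2 in Dmr-PERK cells, and 0.19 and 0.19 for GOT1 in Parental cells. On both scales the members lower were 1 in each line for that comparison, 0 for the line difference of the arsenite effect, and 11 of 35 for arsenite at single times in Parental cells. Dimerizer calls in Parental cells were 0 of 35 higher, 0 members changing with time, and 28 and 14 of all genes.

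With DESeq2 the dimerizer called 291 of all genes and 4 of 35 higher in Parental cells, 2 members were lower in the line difference of the arsenite effect, and GOT2 was -0.0209 for Parental thapsigargin minus arsenite. With DESeq2-type size factors those last 2 values were 2 and -0.0211. Without the filter there were 0 members lower in the line difference and 1 in Parental thapsigargin minus arsenite, and the dimerizer called 254 genes. Set against untreated 4 h, 2 h effects gave 1 higher and 1 lower of 35 for the Parental dimerizer, and ALDH18A1 became -0.33 (Dmr-PERK thapsigargin), -0.23 (Parental dimerizer) and -0.11 (Parental thapsigargin). Without the 24 h arsenite wells 2 members were called lower in the line difference, GPT2 (-0.22) and PYCR1 (-0.11). In that difference GOT1 became 0.12, called higher, and ALDH18A1 became -0.0101, not called. In Parental thapsigargin minus arsenite 1 member was lower without those wells, and GOT1 became 0.22. By Spearman correlation, 0 of 3 genes most like GOT1, 1 for GOT2, 0 for ALDH18A1 and 1 for GLUL were shared.

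Leaving out replicates, the Parental dimerizer calls ran from 3 (without replicate 2) to 104 of all genes (31 without replicate 1), 0 to 1 of 35 higher, and 0 to 1 members changing with time. In the line difference of the arsenite effect 1 (without replicate 1) to 2 members were higher and 0 (without replicate 2 or 3) to 2 lower. In that of thapsigargin 4581 (without replicate 2) to 6083 genes were called and 1 to 2 members (2 without replicate 3) were higher.

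The replicate numbers did not pair the wells (deviations of 72 same-numbered pairs correlated at -0.03 to 0.062, and 0 of 24 comparisons had every pair over 0.1). With the replicate block the Parental dimerizer called 143 of all genes, and no member call changed. Changes over time and likeness were not run with DESeq2. Depth limits GLUL, at 4 to 5 counts per well in Parental cells at 24 h of thapsigargin.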
